A study of Sus scrofa with 12 samples.

Results

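The actin, myosin and tubulin cytoskeleton genes of pig fat and granulosa cells were compared before and after dedifferentiation in culture. Members were chosen by their annotated symbol: cytoplasmic actins, actin-related proteins, capping proteins, cofilins, filamins, alpha-actinins 2 to 4, vinculin, zyxin, tropomyosins 1, 3 and 4, caldesmon, myosin heavy and light chains, unconventional myosins, tubulins, the gamma-tubulin complex and vimentin. Of the 6765 genes named on the array, 51 met this rule, read by 86 probe sets. Each gene was represented by the probe set with the highest mean, and levels are log2 values. The study compared dedifferentiated fat cells (DFAT), grown to semiconfluence from floating adipocytes by ceiling culture, with the mature adipocytes (MA) of fat tissue from which they came. It likewise compared dedifferentiated granulosa cells (DFOG), grown in vitro to semiconfluence, with granulosa cells (GC) taken from ovarian follicles. Each group had 3 arrays. Both comparisons set cultured against isolated cells, so loss of the specialised state and growth in culture cannot be told apart, and in bulk RNA fewer cells of a type and less RNA per cell cannot be told apart either.

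Actin filaments give a cell its shape and let it spread, crawl and contract. New branches are started by the Arp2/3 complex, filaments are capped, severed and cross-linked by further proteins, and nonmuscle myosin II pulls on filaments that tropomyosin and caldesmon coat. Microtubules, built from alpha- and beta-tubulin, carry cargo and form the mitotic spindle. A mature adipocyte holds 1 large lipid droplet inside a thin cortical layer of actin and does not divide, granulosa cells proliferate in the growing follicle, and cells that attach to plastic build stress fibres and focal adhesions.

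Arrays DFOG 2 and DFOG 3 were nearly identical: the SD of their differences over 23999 probe sets was 0.0741, against 0.310 to 0.621 in the 11 other pairs of arrays of a group. Their mean was used as 1 sample, so DFOG had n = 2 and the other groups n = 3. The titles number the arrays as biological replicates, but no label names the animal or culture behind an array, so p-values measure only the spread between these samples. Cell type markers fitted the labels in part. The 5 adipocyte markers averaged 6.46 to 7.68 in DFAT samples and 12.3 to 12.5 in MA samples. The 7 granulosa markers averaged 5.81 to 5.98 in DFOG samples and 8.64 to 8.81 in GC samples. Of these 7, 4 fell in DFOG minus GC, where 13.4% of all named genes fell. INHA, an inhibin subunit made by granulosa cells, averaged 7.44 in DFOG and 14.6 in GC. The granulosa genes CYP19A1 and FOXL2 lay at 4.95 and 5.56 in GC, close to their levels in the other groups. The 9 leukocyte markers averaged 4.17 to 4.28 in DFAT samples and 5.42 to 6.24 in MA samples, with the pan-leukocyte gene PTPRC at 3.36 in DFAT and 3.49 in MA, and the 7 endothelial markers averaged 4.92 to 5.18 in DFAT samples and 5.57 to 6.13 in MA samples. The part of such cells in the MA values was not tested.

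**Figure D1:**
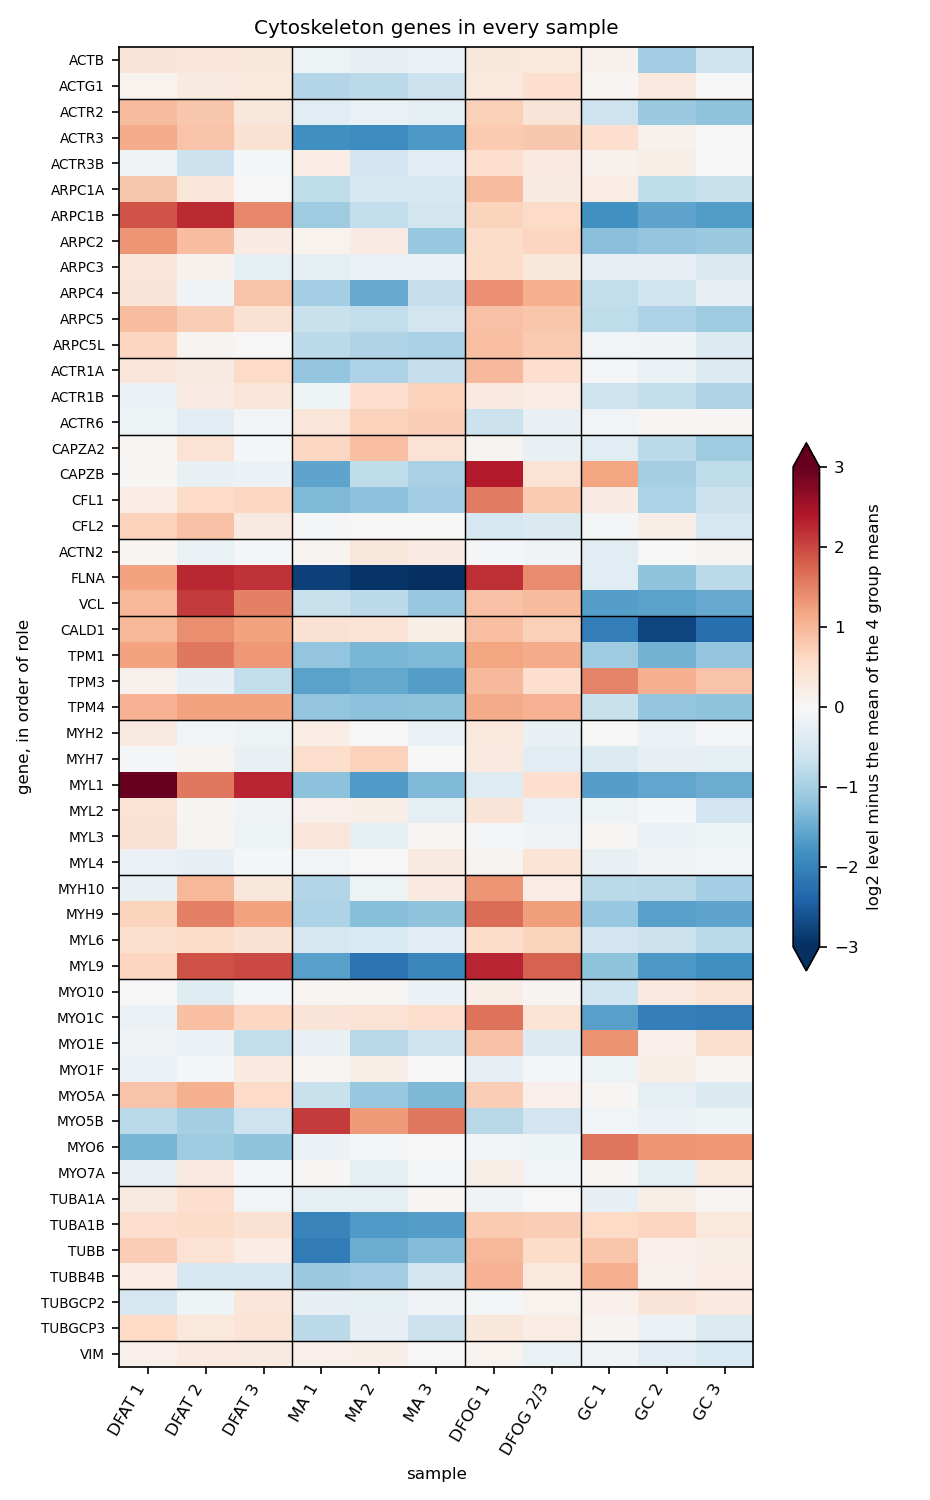
Colour shows the log2 level of each of the 51 genes (rows, in order of role) in each of 11 samples (columns), minus that gene's mean over the 4 group means; red is higher and blue lower. FLNA ranged from 11.82 to 12.88 in DFAT samples and from 7.61 to 7.81 in MA samples, and MYO5B and MYO6 run the other way.

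Dedifferentiation of adipocytes was accompanied by a rise of 26 of the 51 genes and a fall of 3 (limma, adjusted p under 0.05 over all probe sets). Over all named genes 20.7% rose and 20.4% fell in the same comparison, 41.1% in all. The members' median change, DFAT minus MA, was 0.85 on the log2 scale, against -0.02 over all named genes. Among them FLNA, MYL1, MYL9, TPM1, ARPC1B and ACTR3 rose most, and MYO5B, MYO6 and ACTR6 fell. With each array centred on its poly-A controls, which are transcripts added to the RNA before labelling, 32 members rose and 1 fell, against 36.4% and 7.91% of named genes.

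In granulosa cells 22 of the 51 genes rose and 1 fell on dedifferentiation, where 17.3% of all named genes rose and 13.4% fell, 30.6% in all. The median change, DFOG minus GC, was 0.66 in the members and 0.03 over all named genes. MYL9, CALD1, MYO1C, MYH9, FLNA and VCL had the largest rises, and MYO6 was the gene that fell. Centring on the poly-A controls changed the split to 12 risen and 8 fallen members, against 6.67% and 38.5% of named genes. It kept 13 of the 23 calls, and no called member turned in direction. Under poly-A centring the median change over all 23999 probe sets was -0.76 in place of -0.02 in DFOG minus GC, and 0.53 in place of -0.07 in DFAT minus MA. The members' median change was then -0.09 in place of 0.66 in DFOG minus GC, and 1.45 in place of 0.85 in DFAT minus MA.

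The same 17 genes rose in both dedifferentiations, 33.3% of the members against 8.35% of all named genes. They were 7 members of the Arp2/3 group (ACTR2, ARPC1A, ARPC1B, ARPC2, ARPC4, ARPC5 and ARPC5L), the dynactin subunit ACTR1A, CFL1, FLNA, VCL, CALD1, TPM1, TPM4 and the myosin II chains MYH9, MYL6 and MYL9. MYO6 fell in both, as did 5.07% of named genes. With poly-A centring 6 of the 17 (ACTR2, ARPC1A, ARPC5L, ACTR1A, CFL1 and MYL6) lost the call in DFOG minus GC. Another 9 members passed as risen in DFAT minus MA alone (10.8% of named genes) and 5 in DFOG minus GC alone (6.76%). With poly-A centring ACTB, ARPC3, ACTR1B and MYH10 of these 5 lost the call, and MYO1C kept it. ACTR6 and MYO5B passed as fallen in DFAT minus MA alone (13.2%), and 17 members passed in neither (45.4%). Across the 51 genes the 2 changes, which share no samples, correlated at Pearson r = 0.64 and Spearman rho = 0.63, against 0.34 and 0.31 across all named genes. Genes are not independent replicates, and all values come from arrays normalised together.

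**Figure D2:**
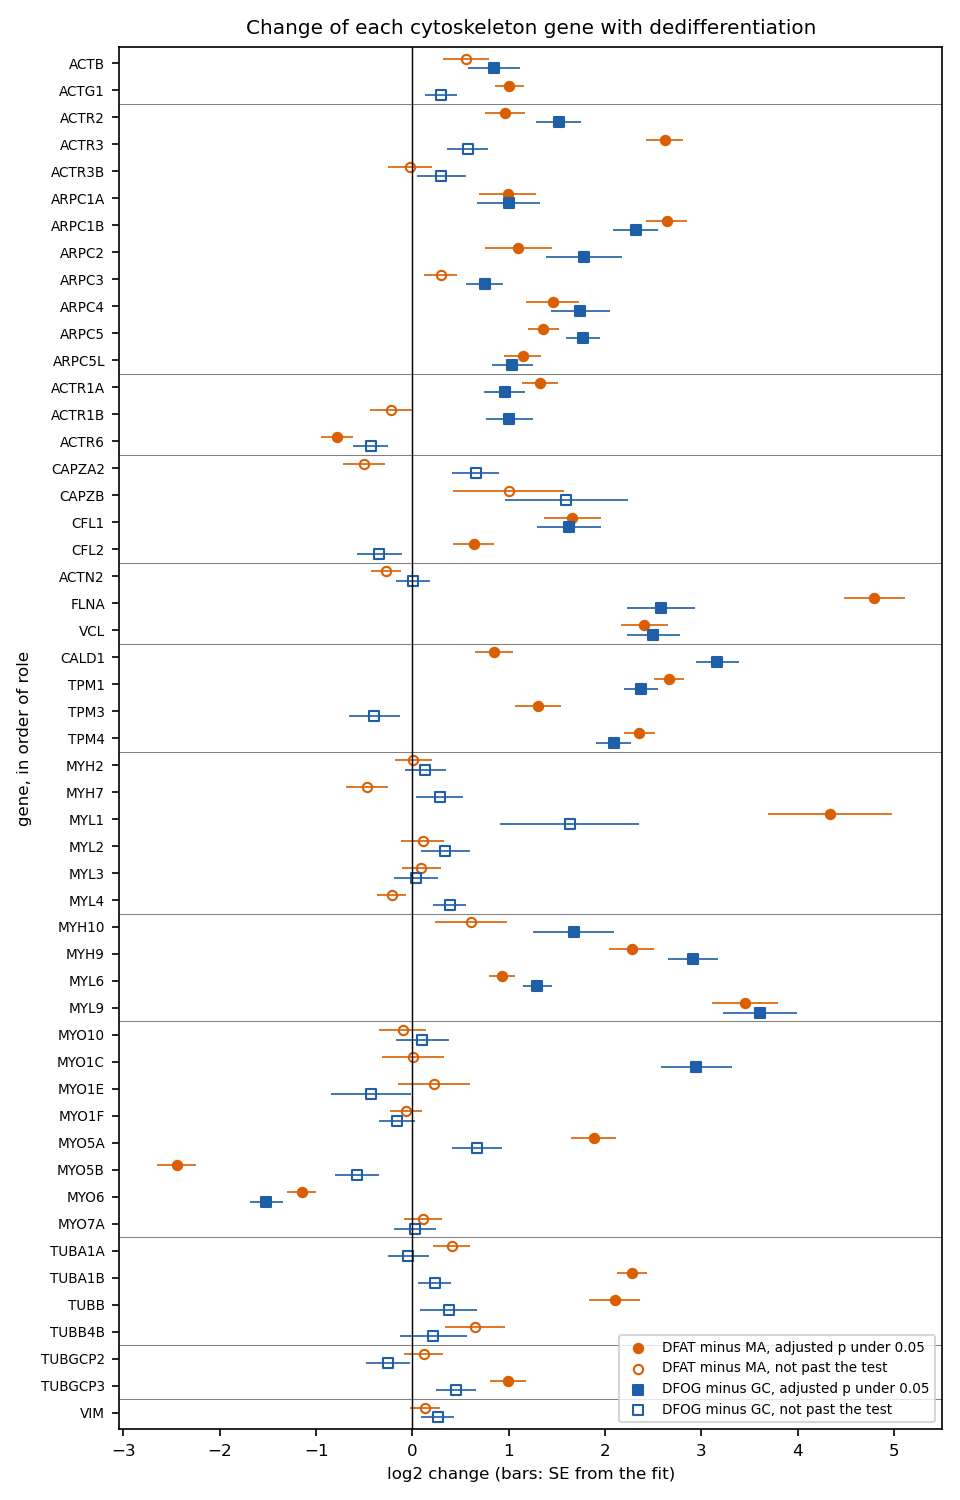
Log2 change of each of the 51 genes with its SE, for DFAT minus MA (circles) and DFOG minus GC (squares); filled symbols passed the test and open ones did not. FLNA, at 4.79 and 2.58, and MYL9, at 3.45 and 3.61, lie far to the right in both comparisons, while TUBA1B and TUBB passed in DFAT minus MA alone and MYO1C in DFOG minus GC alone.

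The cytoplasmic actins ACTB and ACTG1, which form most nonmuscle filaments, were near the top of the scale in every sample. ACTB lay at 14.33, 14.29 and 14.28 in the DFAT samples, against 13.77, 13.69 and 13.76 in the MA samples. The fit takes 1 spread from all groups, and the SD of ACTB was 0.02 in DFAT, 0.04 in MA, 0.02 in DFOG and 0.59 in GC. The DFAT samples were all above the MA samples, but the change of 0.56 ± 0.24 (SE) did not pass the test (limma adjusted p = 0.102). It passed without GC 1 or GC 2 (adjusted p = 0.0141 and 0.0469), with the DFAT and MA arrays alone (0.0211), with arrays weighted by their fit (0.0483) and with poly-A centring (0.00397). In granulosa-derived cells ACTB was 14.28 and 14.25 in DFOG, against 14.05, 12.89 and 13.32 in GC. Both DFOG samples lay above every GC sample, GC 1 being the closest to them, and the rise was 0.85 ± 0.27 (limma adjusted p = 0.0397). That call was lost without GC 2, GC 3, DFOG 1, MA 1, MA 2, MA 3, DFAT 2 or DFAT 3, with an adjusted p between 0.0501 and 0.172. It was lost in 15 of 26 settings in all. These included poly-A centring, where the change was 0.097, the DFOG and GC arrays alone, and the mean over the gene's probe sets. A second, dimmer ACTB probe set ran the other way without passing, at -0.54 and -0.65.

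ACTG1 was measured at 14.03, 14.21 and 14.25 in DFAT samples and at 13.04, 13.15 and 13.28 in MA samples. The groups did not overlap, and the rise was 2.01-fold (1.01 ± 0.15, limma adjusted p = 0.000314). It had values of 14.26 and 14.44 in DFOG, against 13.99, 14.23 and 13.93 in GC, a difference of 0.30 ± 0.17 that did not pass (limma adjusted p = 0.244). MA was thus the group that stood apart, below every sample of the other 3. The highest signal on any array was between 14.7 and 14.9, and ACTB, ACTG1 and VIM lay above 99.2% of probe sets in every sample. Whether signal near the top of the scale compressed these differences was not tested.

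The array also reads ACTG1 with control probe sets along its RNA, a check of RNA integrity, and the size of the change depended on the position read. In DFAT minus MA it was 0.99 ± 0.14 at the 3′ end, 1.74 ± 0.17 in the middle and 2.26 ± 0.31 at the 5′ end. In DFOG minus GC it was 0.32 ± 0.16, 0.85 ± 0.19 and 1.28 ± 0.35, of which the 3′ value did not pass and the middle and 5′ values did (limma adjusted p = 0.174, 0.00774 and 0.02). The 3′ level exceeded the 5′ level by 0.61 ± 0.33 in DFAT and 1.88 ± 0.52 in MA, and by 0.39 ± 0.33 in DFOG and 1.35 ± 0.55 in GC (SD). The gap was wider in the isolated cells of both kinds. With this difference of each array as a covariate, 20 of the 29 calls in DFAT minus MA remained (18 risen, 2 fallen) and 16 of the 23 in DFOG minus GC (15 risen, 1 fallen). The calls lost were those of ACTR2, ACTR6, ARPC1A, ARPC2, CALD1, CFL1, CFL2, TPM3 and TUBGCP3 in DFAT minus MA, and of ACTB, ACTR1A, ACTR1B, ARPC1A, ARPC3, CFL1 and MYH10 in DFOG minus GC. Over all named genes 11.2% rose and 14.9% fell in DFAT minus MA under that fit, and 11.5% rose and 10.5% fell in DFOG minus GC. The members' median change under it was 0.42 and 0.43.

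**Figure D3:**
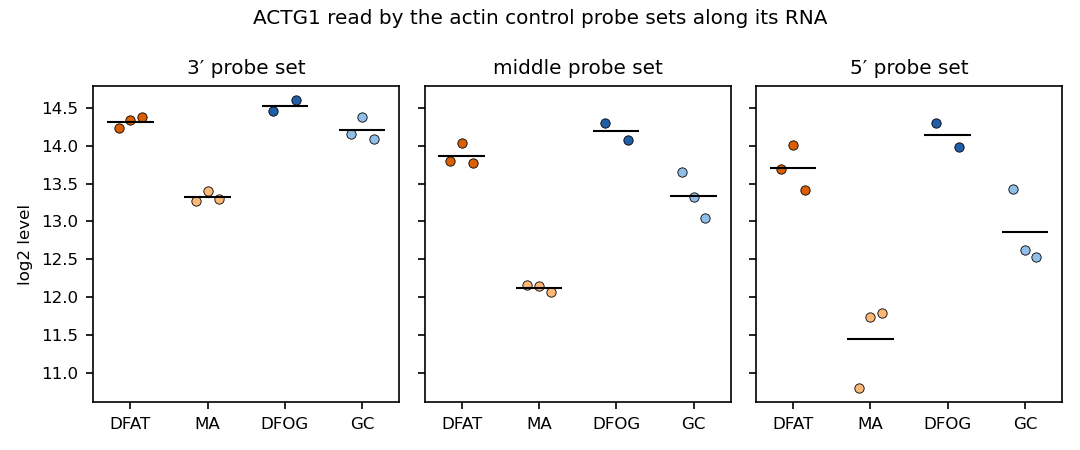
Log2 level of ACTG1 in each sample from the 3′, middle and 5′ actin control probe sets; lines are group means. MA samples fall furthest from the others at the 5′ end, where MA averaged 11.45 and DFAT 13.71, and GC samples, averaging 12.86, lie below the DFOG mean of 14.14.

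In the Arp2/3 group, whose complex nucleates branched filaments at the leading edge, 8 of 10 members rose in DFAT minus MA and 8 of 10 in DFOG minus GC. Over all named genes 20.7% rose in the first comparison and 17.3% in the second. ARPC1B, a subunit of the complex, lay at 11.38, 11.72 and 10.93 in DFAT samples and at 8.42, 8.74 and 8.95 in MA samples. It rose 6.24-fold (2.64 ± 0.21, limma adjusted p = 3.16e-06). In DFOG the values were 10.16 and 10.07, against 7.68, 7.90 and 7.80 in GC, a 4.99-fold rise (2.32 ± 0.24, limma adjusted p = 3.02e-05). Cultured samples of both kinds were above all isolated ones. ARPC5, another subunit, rose by 1.36 ± 0.16 and 1.77 ± 0.18, ARPC4 by 1.46 ± 0.27 and 1.74 ± 0.31, and ARPC5L by 1.14 ± 0.19 and 1.04 ± 0.21, with DFAT minus MA given first each time.

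ACTR2 and ACTR3 are the actin-like subunits from which a new branch starts. ACTR3 lay at 12.85, 12.60 and 12.21 in DFAT samples, against 9.90, 9.86 and 10.04 in MA samples, a 6.14-fold rise (2.62 ± 0.19, limma adjusted p = 1.65e-06). In DFOG it was 12.54 and 12.55, against 12.26, 11.88 and 11.76 in GC. These groups did not overlap either, but the difference of 0.57 ± 0.21 did not pass (limma adjusted p = 0.0765); it passed without GC 1 or without DFAT 3 (adjusted p = 0.0326 and 0.0497). ACTR2, its partner, rose by 0.97 ± 0.21 in DFAT minus MA and by 1.52 ± 0.23 in DFOG minus GC, and the difference between these 2 changes, -0.55 ± 0.31, did not pass (limma adjusted p = 0.253).

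Other Arp2/3 calls were lost when single arrays were left out. ARPC2 rose by 1.10 ± 0.35 in DFAT minus MA (limma adjusted p = 0.0328), a call lost without MA 3, DFAT 1 or DFAT 2 (adjusted p = 0.0863 to 0.109); in DFOG minus GC it rose by 1.78 ± 0.39 (limma adjusted p = 0.00621) and the call held whichever array was left out. ARPC1A rose by 0.99 ± 0.29 and 0.9996 ± 0.33 (limma adjusted p = 0.024 and 0.0469). The first of its calls was lost without MA 1, MA 2, MA 3, DFAT 1 or DFAT 2 (adjusted p = 0.0534 to 0.0833), and the second without GC 2, GC 3, DFOG 1, MA 1, MA 2, MA 3 or DFAT 2 (adjusted p = 0.059 to 0.374). Another ARPC1A probe set of similar mean (9.91 against 9.96) gave 1.31 ± 0.20 and 0.77 ± 0.23 and passed in both. A dimmer one gave 0.38 ± 0.20 and 0.17 ± 0.23 and passed in neither. ARPC3 passed in DFOG minus GC alone, at 0.75 ± 0.19 (limma adjusted p = 0.0143), and lost that call without GC 3 (0.0514) or DFOG 1 (0.128). ACTR3B, a paralogue of ACTR3, passed in neither, at -0.03 ± 0.22 and 0.30 ± 0.25.

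Among the other actin-related proteins, ACTR1A and ACTR1B form the short filament of dynactin, the partner of the microtubule motor dynein, and ACTR6 is a nuclear subunit of chromatin remodellers. ACTR1A rose by 1.33 ± 0.19 in DFAT minus MA and by 0.96 ± 0.21 in DFOG minus GC (limma adjusted p = 0.000243 and 0.00621), the second call being lost without DFOG 1 (adjusted p = 0.0909). For ACTR1B, DFAT minus MA was -0.22 ± 0.22 (limma adjusted p = 0.507) and DFOG minus GC was 1.01 ± 0.25 (limma adjusted p = 0.0117, and 0.0822 without DFOG 1). ACTR6 lay at 8.48, 8.31 and 8.55 in DFAT samples, against 8.998, 9.31 and 9.38 in MA samples. The groups did not overlap, and it fell by 0.78 ± 0.17 (limma adjusted p = 0.00381), the only member outside the unconventional myosins to pass as fallen in either dedifferentiation. With poly-A centring the ACTR6 change was -0.18 and no longer passed (adjusted p = 0.626).

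Of the 4 genes for filament capping and severing, CFL1, the general cofilin that severs old filaments, rose in both. CFL1 averaged 12.37 in DFAT and 10.71 in MA, a rise of 1.66 ± 0.30 (limma adjusted p = 0.0012), and 13.07 in DFOG and 11.45 in GC, a rise of 1.62 ± 0.33 (limma adjusted p = 0.00405) that was lost without DFOG 1 (adjusted p = 0.0638). CFL2, the cofilin best known from muscle, lay at 11.93, 12.13 and 11.51 in DFAT samples and at 11.19, 11.23 and 11.24 in MA samples. DFAT samples were all above MA samples and the rise of 0.63 ± 0.21 passed narrowly (limma adjusted p = 0.0378), but not without DFOG 1, MA 1, MA 2, MA 3, DFAT 1 or DFAT 2 (adjusted p = 0.0509 to 0.137). In DFOG it was 10.74 and 10.82, against 11.20, 11.45 and 10.73 in GC, a difference of -0.35 ± 0.23 that did not pass.

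CAPZA2 and CAPZB, subunits of the protein that caps fast-growing ends, passed in neither comparison. CAPZA2 lay at 11.92, 12.30 and 11.82 in DFAT samples, against 12.48, 12.76 and 12.29 in MA samples, and at 11.93 and 11.63 in DFOG, against 11.52, 11.06 and 10.80 in GC. DFAT and MA overlapped narrowly, and DFOG samples lay above GC samples. Its DFOG minus GC of 0.66 ± 0.25 (limma adjusted p = 0.0767) passed without GC 1 (0.0227). CAPZB lay at 9.76, 9.50 and 9.55 in DFAT samples and at 8.13, 8.94 and 8.74 in MA samples, without overlap; the difference passed with the DFAT and MA arrays alone (adjusted p = 0.0133) and with poly-A centring (0.0111). In DFOG it was 12.10 and 10.15, against 10.90, 8.73 and 8.95 in GC. DFOG 1 and GC 1 each lay well above the other samples of their group, and DFOG minus GC was 1.60 ± 0.64 (limma adjusted p = 0.099); without GC 1 it was 2.28 (adjusted p = 0.008).

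Cross-linkers and adhesion proteins held the largest rise of all members. FLNA, filamin A, ties actin filaments into networks and to integrins, and lay at 11.82, 12.88 and 12.78 in DFAT samples, against 7.81, 7.68 and 7.61 in MA samples. Every DFAT sample was far above every MA sample, and the rise was 27.8-fold (4.79 ± 0.32, limma adjusted p = 7.78e-07). In DFOG its values were 12.80 and 12.04, against 10.29, 9.40 and 9.84 in GC, a 5.97-fold rise (2.58 ± 0.35, limma adjusted p = 0.000274). DFAT minus DFOG was 0.07, with a 95% interval from -0.70 to 0.85.

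VCL, vinculin, links integrin adhesions to actin and rose by nearly the same amount in both. Its levels were 12.27, 13.37 and 12.77 in DFAT samples, against 10.59, 10.48 and 10.12 in MA samples (2.41 ± 0.25, limma adjusted p = 1.98e-05). In DFOG they were 12.13 and 12.21, against 9.60, 9.66 and 9.74 in GC (2.50 ± 0.27, limma adjusted p = 5.39e-05). All cultured samples exceeded all isolated ones. ACTN2, the alpha-actinin of the muscle Z-disc, was between 6.51 and 7.18 in all samples and passed in neither, at -0.27 ± 0.16 and 0.01 ± 0.18.

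Tropomyosins and caldesmon, which coat filaments and set their access to myosin and cofilin, rose in 4 of 4 genes in DFAT minus MA and in 3 of 4 in DFOG minus GC. The shares risen over all named genes were 20.7% and 17.3%. TPM1 lay at 13.89, 14.25 and 13.98 in DFAT samples, against 11.50, 11.30 and 11.35 in MA samples, and at 13.85 and 13.79 in DFOG, against 11.60, 11.25 and 11.49 in GC. Samples fell into a high cultured and a low isolated level with a wide gap between them. The rises were 6.32-fold (2.66 ± 0.16, limma adjusted p = 3.22e-07) and 5.17-fold (2.37 ± 0.17, limma adjusted p = 2.69e-06). TPM4 did the same, rising 5.12-fold (2.36 ± 0.16) and 4.26-fold (2.09 ± 0.18).

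CALD1 and TPM3 differed between the isolated cells of the 2 lineages. CALD1 lay at 13.75, 14.15 and 13.97 in DFAT samples and at 13.22, 13.16 and 12.93 in MA samples, a rise of 0.85 ± 0.20 (limma adjusted p = 0.00607). DFOG samples had 13.65 and 13.46, against 10.68, 9.997 and 10.50 in GC, an 8.98-fold rise (3.17 ± 0.22, limma adjusted p = 1.72e-06). GC was the group that stood apart, below every other sample. TPM3 lay at 12.20, 11.83 and 11.34 in DFAT samples, against 10.47, 10.55 and 10.44 in MA samples (1.30 ± 0.24, limma adjusted p = 0.00143), and at 13.06 and 12.58 in DFOG, against 13.56, 13.14 and 12.94 in GC. DFAT samples were above MA samples but below both GC and DFOG samples, which overlapped each other (-0.40 ± 0.27, limma adjusted p = 0.35).

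Myosin II, the motor of stress fibres, consists of heavy chains such as MYH9 and MYH10 with essential (MYL6) and regulatory (MYL9) light chains. Of these 4 genes 3 rose in DFAT minus MA and 4 in DFOG minus GC, against 20.7% and 17.3% of all named genes. MYL9 lay at 11.06, 12.33 and 12.42 in DFAT samples, against 8.79, 8.21 and 8.47 in MA samples, and at 12.71 and 12.19 in DFOG, against 9.22, 8.69 and 8.60 in GC. No cultured sample overlapped an isolated one. It rose 10.9-fold (3.45 ± 0.34, limma adjusted p = 1.64e-05) and 12.2-fold (3.61 ± 0.38, limma adjusted p = 4.24e-05).

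MYH9 lay at 12.97, 13.80 and 13.51 in DFAT samples, against 11.36, 11.01 and 11.08 in MA samples (2.28 ± 0.23, limma adjusted p = 2.19e-05). Its DFOG values were 13.97 and 13.55, against 11.16, 10.65 and 10.72 in GC (2.92 ± 0.26, limma adjusted p = 1.24e-05). MYH9 thus showed the same separation of cultured from isolated samples as MYL9. MYL6 rose by 0.93 ± 0.13 and 1.29 ± 0.15 (limma adjusted p = 0.00027 and 8.09e-05). MYH10 rose in DFOG minus GC (1.67 ± 0.42, limma adjusted p = 0.013), a call lost without DFOG 1 (adjusted p = 0.17), and did not pass in DFAT minus MA (0.61 ± 0.38, limma adjusted p = 0.262). Smooth muscle and pericyte markers were read beside the contractile genes. Of 8 measured, 5 rose and 1 fell in DFAT minus MA (20.7% and 20.4% of all named genes), and 6 rose and 1 fell in DFOG minus GC (17.3% and 13.4%). Their mean was 9.45 to 10.3 in DFAT samples and 6.48 to 6.85 in MA samples, and 9.73 to 10.2 in DFOG samples and 6.15 to 6.52 in GC samples. In MA and GC samples the mean of these markers was near the group median over all probe sets, 6.39 in MA and 6.47 in GC. Among tropomyosins, caldesmon and myosin II, TPM1, TPM4, CALD1, MYH9, MYL6 and MYL9 were higher in every cultured sample than in every isolated one. TPM3 and MYH10 were not. CALD1 was also high in MA, and TPM3 was high in GC. The part of the markers' cells in the changes of the contractile genes was not tested.

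Of the 6 myosin genes of striated muscle, 5 (MYH2, MYH7, MYL2, MYL3 and MYL4) passed in neither dedifferentiation, with levels between 3.06 and 6.80 in all samples. MYH2, MYH7 and MYL2 had a mean under 6 in every group. Such dim probe sets limit what could pass, so these genes are a weak contrast to the others. MYH7 passed as lower in DFAT only without MA 3 (-0.68, adjusted p = 0.0368). The exception was MYL1, an essential light chain of fast skeletal muscle. It lay at 10.45, 7.15 and 7.86 in DFAT samples, against 4.33, 3.87 and 4.24 in MA samples, a 20.2-fold rise (4.34 ± 0.64, limma adjusted p = 0.000332). DFAT 1 was far above the other DFAT samples, and without it the rise was 3.36 (adjusted p = 1.11e-05). In DFOG the values were 5.18 and 6.07, against 3.90, 4.01 and 4.07 in GC. Both were above all GC samples, but the difference of 1.63 ± 0.72 did not pass (limma adjusted p = 0.134). It passed without DFAT 1 (adjusted p = 0.00182). It also passed with the DFOG and GC arrays alone, with arrays weighted by their fit and with all arrays as separate samples.

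Skeletal muscle markers were read beside MYL1. Of 8 measured, TNNT1, slow skeletal troponin T, rose in both, averaging 8.03 in DFAT and 4.08 in MA, and 7.08 in DFOG and 4.60 in GC, and 2 fell in DFAT minus MA (CKM and MYBPC1). Over all named genes 8.35% rose in both and 20.4% fell in DFAT minus MA. The mean over the 8 markers was 4.98 to 5.27 in DFAT samples and 4.75 to 4.98 in MA samples, and 4.92 to 5.00 in DFOG samples and 4.61 to 4.70 in GC samples. CKM, the muscle creatine kinase, lay at 4.25 in DFAT and 5.45 in MA, and TNNT3, TNNC2, TNNI2 and TNNI1 stayed at or below 5.37 in every group mean.

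Unconventional myosins move vesicles and tether membranes to actin. Of their 8 genes 1 rose and 2 fell in DFAT minus MA, where 20.7% of all named genes rose and 20.4% fell. In DFOG minus GC 1 rose and 1 fell, against 17.3% and 13.4% of named genes, so few and mixed calls are no trait of this class. MYO6, which walks towards the minus end of filaments and serves in endocytosis, fell in both. It lay at 6.77, 7.12 and 6.95 in DFAT samples, against 7.99, 8.11 and 8.19 in MA samples, and at 8.08 and 8.04 in DFOG, against 9.78, 9.48 and 9.47 in GC. No pair of groups overlapped except MA and DFOG. The falls were -1.15 ± 0.15 (limma adjusted p = 0.000146) and -1.52 ± 0.17 (limma adjusted p = 6.58e-05); with poly-A centring the fall in DFAT minus MA was -0.55 and did not pass (adjusted p = 0.157).

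MYO5B, a carrier of recycling endosomes known from polarised epithelia, lay at 4.53, 4.36 and 4.73 in DFAT samples, against 7.43, 6.61 and 6.92 in MA samples. The groups were widely apart, and the gene fell 5.46-fold (-2.45 ± 0.21, limma adjusted p = 4.44e-06). DFOG samples had 4.50 and 4.77, against 5.25, 5.17 and 5.22 in GC. The difference of -0.58 ± 0.23 did not pass (limma adjusted p = 0.0957), but did without MA 1 (adjusted p = 0.0409), with the DFOG and GC arrays alone (0.0478) and with poly-A centring (-1.32, adjusted p = 0.00317). In DFAT minus MA 20.4% of all named genes fell, and so did 2 of 3 epithelial and mesothelial markers. The mean of the 3 was 4.65 to 5.05 in DFAT samples and 6.21 to 6.27 in MA samples. CLDN4 averaged 6.35 in DFAT and 9.45 in MA, CDH1 4.39 in DFAT and 5.50 in MA, and EPCAM 3.77 in DFAT and 3.76 in MA. Their part in the fall of MYO5B was not tested.

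MYO1C, which links membranes to actin and helps deliver the glucose transporter GLUT4 to the surface of fat cells, did not pass in the adipocyte lineage and rose in the granulosa lineage. It lay at 9.35, 10.42 and 10.14 in DFAT samples and at 9.91, 9.95 and 10.03 in MA samples, which overlapped (0.01 ± 0.33, 95% interval -0.71 to 0.72). DFOG samples had 11.14 and 9.93, against 7.89, 7.45 and 7.41 in GC, a 7.72-fold rise (2.95 ± 0.36, limma adjusted p = 0.000133). GC samples were below all others. MYO5A, a vesicle motor, rose by 1.88 ± 0.23 in DFAT minus MA (limma adjusted p = 8.47e-05) and was 0.67 ± 0.26 higher in DFOG than in GC without passing (limma adjusted p = 0.0889). MYO1E, MYO1F, MYO7A and MYO10 passed in neither.

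Of the 4 tubulins, TUBA1B and TUBB rose in DFAT minus MA, where 20.7% of all named genes rose. Both were high in DFOG and GC alike, and neither passed in DFOG minus GC (17.3% of named genes rose). TUBA1B, a main alpha-tubulin of proliferating cells, lay at 13.72, 13.78 and 13.67 in DFAT samples, against 11.23, 11.53 and 11.57 in MA samples, a 4.85-fold rise (2.28 ± 0.15, limma adjusted p = 9.05e-07). In DFOG it had 13.999 and 13.95, against 13.81, 13.88 and 13.53 in GC (0.23 ± 0.17, 95% interval -0.14 to 0.61, limma adjusted p = 0.397). MA alone was low. TUBB, a beta-tubulin, had 12.86, 12.56 and 12.35 in DFAT samples and 10.02, 10.64 and 10.81 in MA samples, a 4.28-fold rise (2.10 ± 0.26, limma adjusted p = 9.18e-05). Its DFOG values of 13.10 and 12.66 overlapped those of GC, at 12.95, 12.27 and 12.29 (0.38 ± 0.29, limma adjusted p = 0.431).

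TUBB4B was 0.65 ± 0.31 higher in DFAT than in MA and 0.22 ± 0.35 higher in DFOG than in GC, neither past the test, and TUBA1A stayed between 3.40 and 4.20. Of the ring complex that nucleates microtubules with gamma-tubulin, TUBGCP3 rose in DFAT minus MA (0.99 ± 0.19, limma adjusted p = 0.00167) and TUBGCP2 did not pass (0.12 ± 0.20). Of 5 mitosis genes all rose in DFAT minus MA (20.7% of all named genes), and 1 fell and none rose in DFOG minus GC (13.4% and 17.3%). Their mean was 6.999 to 9.27 in DFAT samples and 4.64 to 4.93 in MA samples, and 8.45 to 8.92 in DFOG samples and 9.41 to 9.95 in GC samples. The part of cell division in the tubulin values was not tested. Actin and tubulin paralogues are close in sequence, and cross-hybridisation between them was not tested.

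Vimentin, the intermediate filament of mesenchymal cells, was high throughout. VIM lay at 14.32, 14.44 and 14.43 in DFAT samples and at 14.31, 14.35 and 14.14 in MA samples, and at 14.27 and 13.96 in DFOG and 14.05, 13.82 and 13.69 in GC. The groups overlapped in both comparisons. The differences were 0.13 ± 0.15 (95% interval -0.21 to 0.47, limma adjusted p = 0.576) and 0.26 ± 0.17 (95% interval -0.12 to 0.64, limma adjusted p = 0.333).

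**Figure D4:**
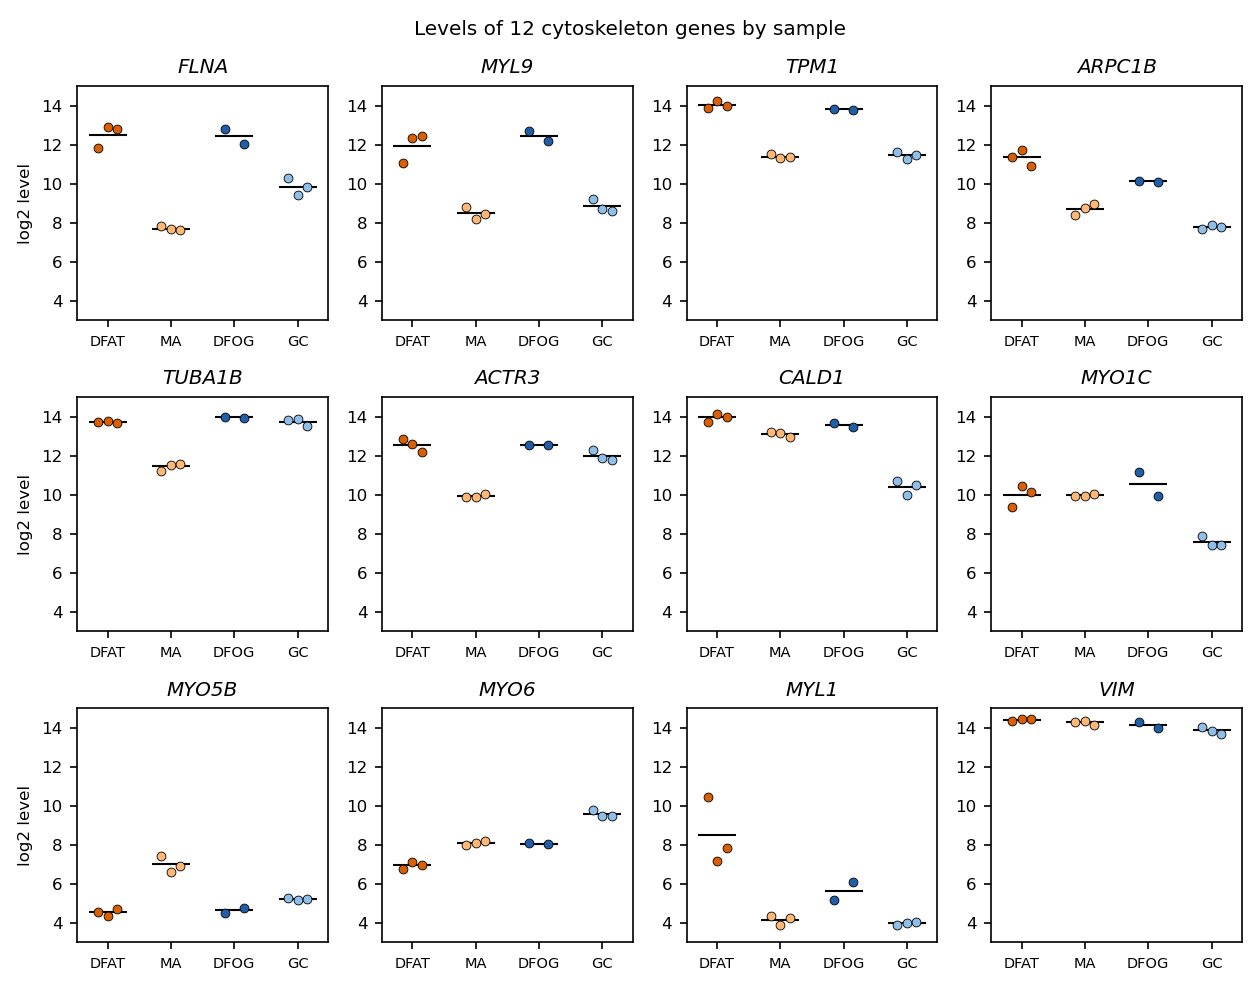
Log2 level of 12 cytoskeleton genes in every sample (points), with the mean of each group (lines), on the same axis from 3 to 15. FLNA, MYL9, TPM1 and ARPC1B are high in both cultures; TUBA1B and ACTR3 are low in MA alone; CALD1 and MYO1C are low in GC alone; MYO5B is high in MA; MYO6 falls in both; MYL1 is high in DFAT; VIM stays between 13.69 and 14.44.

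The size of the change was then compared between the lineages. The change DFAT minus MA differed from the change DFOG minus GC in 13 of the 51 genes, 8 with a more positive change in the adipocyte lineage and 5 with a more negative one, where 29.1% of all named genes differed (13.2% and 15.9%). The members' share was near the background. FLNA (2.22 ± 0.47, limma adjusted p = 0.00573), ACTR3 (2.04 ± 0.29, 0.000417), TUBA1B (2.04 ± 0.23, 8.83e-05), TUBB (1.72 ± 0.39, 0.00823) and TPM3 (1.70 ± 0.36, 0.00537) changed more positively from MA to DFAT. MYO1C (-2.94 ± 0.49, 0.00126), CALD1 (-2.32 ± 0.29, 0.000208) and MYO5B (-1.87 ± 0.31, 0.00117) changed more positively, or fell less, from GC to DFOG. With poly-A centring 32 members passed with a more positive change in the adipocyte lineage and 1 with a more negative one, against 62% and 4.51% of named genes, the median over all probe sets being 1.30 in place of -0.05; CALD1 (-0.97) and MYO5B (-0.52) then no longer passed. Without MA 2 the count was 8 in place of 13.

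The isolated cells were also compared with each other. MA and GC differed in 22 of the 51 genes, 10 higher and 12 lower in MA, against 49.4% of all named genes (26.8% higher and 22.6% lower). Higher in MA were CALD1 (2.71 ± 0.20, limma adjusted p = 9.47e-07), MYO1C (2.38 ± 0.33, 0.000133), MYO5B (1.78 ± 0.21, 3.58e-05) and CAPZA2 (1.38 ± 0.22, 0.000386). TPM3 (-2.73 ± 0.24, 4.06e-06), TUBA1B (-2.30 ± 0.15, 5.04e-07), FLNA (-2.14 ± 0.32, 0.000224) and ACTR3 (-2.03 ± 0.19, 7.36e-06) were the lowest in MA relative to GC. With poly-A centring the median over all probe sets was -1.19 in place of 0.07 in this comparison, and 2 members were higher and 40 lower in MA, against 7.02% and 73.6% of named genes; these 8 kept their direction under it, MYO5B (0.51) and CAPZA2 (0.12) without passing.

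DFAT and DFOG differed in 5 of the 51 genes, against 10.4% of all named genes (4.86% higher and 5.5% lower in DFAT). MYL1 (2.86 ± 0.72, limma adjusted p = 0.0327), ARPC1B (1.23 ± 0.24, 0.00708) and CFL2 (1.08 ± 0.23, 0.0147) were higher in DFAT, and MYO6 (-1.11 ± 0.17, 0.0016) and TPM3 (-1.03 ± 0.27, 0.0378) were lower. Without DFOG 1 the count was 2, and without MA 2, MA 3 or DFAT 2 it was 3. TPM3 lost its call without GC 2, DFOG 1, MA 1, MA 2, MA 3, DFAT 2 or DFAT 3 (adjusted p = 0.0544 to 0.345), MYL1 without GC 3, DFOG 1, MA 2 or MA 3 (0.0533 to 0.263), and CFL2 without DFOG 1 or DFAT 2 (0.0512 to 0.114). With poly-A centring, where 3.49% of named genes were higher and 3.43% lower in DFAT, 1 member passed, MYL1.

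Between the cultures, several genes far apart in the isolated cells lay closer. CALD1 was 0.40 higher in DFAT than in DFOG (95% interval -0.09 to 0.88), TUBA1B 0.25 lower (-0.25, 95% interval -0.63 to 0.13) and ACTR3 0.01 higher (95% interval -0.46 to 0.48). TPM3 and MYO6, at -2.73 and -1.48 in MA minus GC, kept a difference past the test in DFAT minus DFOG, at -1.03 and -1.11. The median size of the difference over the 51 genes was 0.26 between DFAT and DFOG and 0.60 between MA and GC, and 35 of 51 genes differed less in culture. The same held over all named genes, with medians of 0.24 and 0.56 and a smaller difference in 4965 of 6765.

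**Figure D5:**
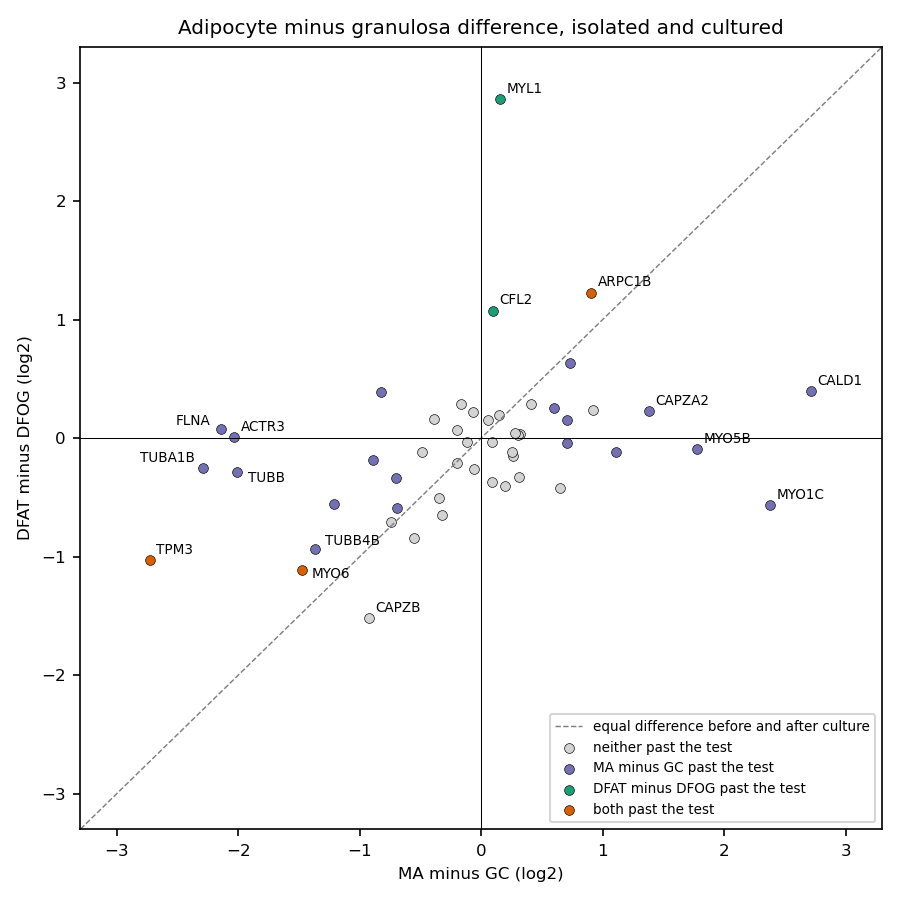
Each point is 1 of the 51 genes, with MA minus GC on the horizontal and DFAT minus DFOG on the vertical axis (log2); the dashed line marks equal differences. CALD1, MYO1C, TUBA1B, FLNA and ACTR3 lie farther from 0 on the horizontal than on the vertical axis, and MYL1 does the reverse.

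The members were also sorted by which samples overlap. All DFAT and DFOG samples lay above all MA and GC samples in 19 of 51 genes (9.79% of all named genes), and below them in 1, MYO5B (6.18%). All MA samples lay below every other sample in 11 genes, among them ACTG1, ACTR3, FLNA, TPM3, TUBA1B and TUBB (13.8%), and all GC samples in 9, among them ARPC1B, CALD1, MYO1C and VCL (12.9%). All MA samples lay above every other sample in 2 genes, ACTR6 and MYO5B (16.7%), and all GC samples in 1, MYO6 (11.5%). A gene can be in more than 1 of these counts. The lowest group mean was that of MA in 22 genes (29.1% of named genes) and of GC in 21 (32.4%), and the highest that of DFAT in 18 (19.1%) and of DFOG in 22 (19.9%). An F-test over the 4 groups passed for 38 members, 74.5%, against 62.4% of all named genes.

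For 22 genes more than 1 probe set was measured, and no gene had probe sets that passed in opposite directions in either dedifferentiation. All sets of a gene passed in 1 direction for 7 of these in DFAT minus MA and 2 in DFOG minus GC. In DFAT minus MA 1 of 3 ACTR6 and 3 of 6 ACTG1 sets passed. Where the representative did not pass, another set did for CAPZB (risen) and ACTN2 (fallen) in DFAT minus MA. The same held for TPM3 (fallen) in DFOG minus GC. By the majority of a gene's sets 24 of the 29 calls remained in DFAT minus MA and 18 of the 23 in DFOG minus GC. Of the other TPM1 probe sets, the brighter gave 3.59 ± 0.24 and 3.39 ± 0.27, larger than the representative one in both comparisons. The dimmer gave 0.997 ± 0.25 and 0.67 ± 0.28, smaller than the representative one, and passed in DFAT minus MA alone. For TPM4 the other probe set gave 3.22 ± 0.29 and 2.65 ± 0.33, larger than the representative one in both. Of the other VCL probe sets, the brighter gave 2.21 ± 0.59 and 3.04 ± 0.65 and passed in both. The dimmer, averaging 4.42 to 4.54 in the 4 groups, gave 0.05 ± 0.31 and 0.01 ± 0.34. The second CALD1 probe set gave 1.74 ± 0.26 and 3.70 ± 0.29. A low MYH9 probe set, averaging 5.07 to 5.16 in the 4 groups, gave -0.03 ± 0.15 and 0.01 ± 0.17, unlike the representative one.

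Genes that act on the same filaments but lie outside the rule were counted as whole lists. Over all named genes 20.7% rose and 20.4% fell in DFAT minus MA, and 17.3% and 13.4% in DFOG minus GC. Of 12 measured genes for membrane linkage and focal adhesion, 8 rose in DFAT minus MA, and 9 rose and 1 fell in DFOG minus GC. ITGA5, a fibronectin receptor chain, averaged 11.44 in DFAT and 5.598 in MA, and 10.30 in DFOG and 5.36 in GC, and ACTN1, the nonmuscle alpha-actinin, averaged 12.63 in DFAT and 8.02 in MA, and 12.71 in DFOG and 7.08 in GC. EZR, which joins the membrane to actin, rose in the first comparison (2.90) and fell in the second (-1.62). Of 25 actin assembly and signalling genes, 11 rose and 1 fell in DFAT minus MA, and 11 rose and 2 fell in DFOG minus GC.

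Lists tied to microtubules and other filaments were counted likewise. Of 13 microtubule regulators and motors 6 rose and 1 fell in DFAT minus MA, and 2 rose in DFOG minus GC; STMN1, which sequesters tubulin, averaged 10.58 in DFAT and 8.19 in MA, and 12.25 in DFOG and 12.71 in GC. Among 6 subunits of the CCT chaperonin, which folds actin and tubulin, 1 passed, as risen in DFOG minus GC. Of 7 other intermediate filament genes 3 rose in DFAT minus MA and 5 in DFOG minus GC, with desmin (DES) averaging 10.14 in DFAT and 6.29 in MA, and 8.36 in DFOG and 6.38 in GC. Among 4 measured genes of the SRF, MRTF and YAP list, which includes regulators of cytoskeleton genes, 1 rose in DFAT minus MA, and 2 rose and 1 fell in DFOG minus GC.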

How the data were processed

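RNA of 12 pig samples, 3 per group, was hybridised to Affymetrix porcine genome arrays. The values are log2 signals that the authors made with RMA, per the submitters' processing notes; version and settings are not given in the sources used here. RMA as usually run brings the probe intensities of all arrays to 1 distribution before summarising them, which leaves a global change in RNA amount largely unseen; group medians of the deposited values were 6.39 to 6.47. Of 24123 probe sets 124 controls were left out, and 23999 were tested, 10069 of them with 1 gene symbol, 198 with several and 13732 with none in the platform annotation. A gene was read by its highest-mean probe set, and 6 probe sets that pair a member's symbol with others were not used.

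All 4 groups were fitted together with limma 3.58.1 in R 4.3.3 (lmFit, contrasts.fit, eBayes), two-sided, with Benjamini-Hochberg adjustment over all 23999 probe sets and a threshold of 0.05; DFOG 2 and 3 were averaged, leaving 11 samples. Adjusted p-values in the text come from this fit unless a setting is named. Figures were drawn with matplotlib 3.10.9. The fit was tested on simulated data. The members and lists were chosen with earlier results of these data known. Every member was counted; values in every sample were given for ACTB, ACTG1, VIM, the 6 members with the largest called changes in each dedifferentiation and direction, the 6 with the largest called difference between lineages and up to 4 per direction in the other comparisons, and for a few more (CAPZB) chosen after their values were seen. Examples from the lists outside the rule were also chosen after their values were seen. The number of arrays limits the precision. No sequences are printed.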

Additional observations from a re-analysis of the deposited data

Results flagged for a closer look

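The change DFAT minus MA differed from the change DFOG minus GC, by the interaction term of the limma fit, in 13 cytoskeleton genes. The differences were 2.22 for FLNA, 2.04 for TUBA1B, 2.04 for ACTR3, 1.72 for TUBB, 1.70 for TPM3, 1.21 for MYO5A, 0.98 for CFL2 and 0.71 for ACTG1. They were -2.94 for MYO1C, -2.32 for CALD1, -1.87 for MYO5B, -1.23 for ACTR1B and -1.16 for CAPZA2. Of the 13 calls 5 were lost when a single array was left out. They were ACTG1 (without GC 2, DFOG 1, MA 1, MA 2, DFAT 2 or DFAT 3, adjusted p = 0.0761 to 0.161), ACTR1B (without GC 3, DFOG 1 or MA 2, 0.0505 to 0.0739), CAPZA2 (without GC 2, GC 3, DFOG 1, MA 2 or DFAT 3, 0.056 to 0.115), CFL2 (without GC 1, GC 2, DFOG 1, MA 1, MA 2, MA 3, DFAT 1 or DFAT 2, 0.0694 to 0.131) and MYO5A (without GC 1, MA 2, MA 3 or DFAT 2, 0.0525 to 0.0626). With poly-A centring ACTR1B and CAPZA2 changed sign.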

How the results depend on the processing

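The counts of called members were 26 to 30 in DFAT minus MA and 16 to 26 in DFOG minus GC when single arrays were left out, and 20 to 33 and 16 to 28 under the other settings. Those of the F-test were 34 to 38 and 30 to 48. In the difference between the 2 changes, leaving out arrays gave 8 to 13 (8 without MA 2) and poly-A centring 33 (32 more positive, 1 more negative). In MA minus GC, leaving out arrays gave 16 to 24, poly-A centring 42 and the demand for a 2-fold difference 13. In DFAT minus DFOG, leaving out arrays gave 2 to 7 (7 without DFAT 1), the replicate block with all arrays as separate samples 8, poly-A centring 1 and the fit on those groups alone 1. The block gave 29 and 27 in the dedifferentiations, adding ACTR3, CAPZA2, MYL4 and MYO5A (adjusted p = 0.0206 for MYO5A) in DFOG minus GC; the first 3 also passed with all arrays separate and no block. Same-numbered arrays correlated at 0.0999 to 0.168 between DFAT and MA (3 of 3 best with their own number) and 0.355 to 0.604 between DFOG and GC (2 of 3), a hint from the data that numbers may be shared. They were not taken as pairs, since no label says so, 1 DFAT and MA pair lay under 0.1, and DFOG 2 and 3 were nearly identical and counted once. Directions turned under poly-A centring for ACTR1B (0.12) and CAPZA2 (0.19) in the difference between the changes, and in MA minus GC for ACTR1B (-0.16), ACTR2 (-0.56), ACTR6 (-0.67), ARPC1B (-0.36), MYH7 (-0.56) and VCL (-0.54). ACTR1A turned in MA minus GC with the mean of its probe sets (0.026) or their median (0.28). Poly-A centring moved all probe sets of an array by the same amount. Other ACTR1A probe sets gave 0.28 and 0.50 in MA minus GC, without passing. Why the poly-A controls differed between groups was not tested. A filter on probe sets with a mean under 6 kept 45 of 51 members. A filter at 5 and the inclusion of control probe sets were added after seeing the data and moved no count by more than 1. Small groups, values near the top of the scale and dim probe sets limit what could pass.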
